A study of Homo sapiens with 12 samples.

Results

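The plasminogen activator system was followed through 5 genes: the activators PLAT and PLAU, the receptor gene PLAUR and the inhibitor genes SERPINE2 and SERPINB2. They were chosen by name, with earlier results of these data known. Each is the protein-coding interval that carries that gene name, and together they are 5 of the 44398 gene intervals analysed. RNA sequencing had been done on 12 libraries of A172, an established human glioblastoma line labelled as wild type and as adherent glioma cells of the brain. Of these libraries, 4 came from cells given siRNA-2 against uc.110, 4 from cells given siRNA-1 against uc.110 and 4 from cells given a scrambled control siRNA. uc.110 is an ultraconserved region of the genome, and the study was designed to find genes whose expression changes when it is knocked down. All 3 groups received a Lipofectamine reagent with their siRNA (3 µL at 20 µM) for 6 h on day 1, in full serum medium before and after, and RNA was collected on day 2. No untransfected cells were analysed here, and every value comes from 1 cell line. Whether replicates are separate cultures is not stated, so p-values measure only the spread between these libraries, which may be technical.

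Plasminogen is a circulating zymogen that becomes the broad-acting protease plasmin when it is cut by tissue-type activator (tPA, from PLAT) or urokinase (uPA, from PLAU). The uPA receptor (uPAR, from PLAUR) is anchored to the outer membrane by a lipid and concentrates urokinase at the cell surface, while serpins such as protease nexin-1 (from SERPINE2) and PAI-2 (from SERPINB2) trap the activators in inactive complexes. In glioblastoma, urokinase and its receptor are known for their part in breakdown of the matrix at the invading edge, and tPA is known in the brain for roles at synapses and at the blood-brain barrier.

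Depth ran between 43426663 and 54577604 counts per library over the gene intervals. Intervals of the 45S ribosomal RNA repeat took 1.80 to 5.39% of counts in 10 libraries, 9.07% in siRNA-2 replicate 2 and 15.5% in siRNA-1 replicate 3, and they were left out of the fit. The targeted region, uc.110 (chr2:236162738-236162980, hg38), held 3, 0, 4 and 0 reads with siRNA-2, 2, 0, 1 and 2 reads with siRNA-1 and 4, 0, 1 and 6 reads with scrambled siRNA, too few to show a knockdown at this depth. Of 8 glioma and mesenchymal markers, VIM, CD44 and NES were abundant, with VIM at 1918 CPM (counts per 1e6 counts) with siRNA-2, 1660 CPM with siRNA-1 and 2596 CPM with scrambled siRNA, while SOX2 averaged 13.8, 14.2 and 15.3 CPM in the same groups and GFAP only 7.41, 8.35 and 6.18 CPM. OLIG2 averaged 9.56 CPM with siRNA-2 and 8.82 CPM with siRNA-1 against 4.57 CPM with scrambled siRNA and rose with both (log2 fold changes 1.07 and 0.95). VIM was lower with both (-0.44 and -0.65). Of the 6 markers of this list that were tested, 3 were called higher and 2 lower with each siRNA. Over all genes tested, 29.9% were called higher and 26.2% lower with siRNA-2, and 28.6% and 24.9% with siRNA-1. FABP7 was under 1 CPM, and the astrocyte gene S100B had no read in 11 of 12 libraries. In a list of 10 interferon-stimulated genes, 10 of 10 were called higher with each siRNA, against 29.9% of all genes tested with siRNA-2 and 28.6% with siRNA-1. The summed level of the list was 2878 to 3130 CPM with siRNA-2, 2192 to 2327 CPM with siRNA-1 and 401 to 835 CPM with scrambled siRNA. Scrambled replicate 1 was the scrambled library highest in all 10 of these genes.

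RefSeq start-site windows, 250 bases before to 50 after, were at hand for 4 of the 5 genes (6 windows, GRCh38.p14). No window was at hand for PLAT, so PLAT was not searched. The 3 windows below are shown because they held the motifs that set the genes apart. Positions count bases from the start site. Capitals mark an AP-1 site in the first, an AP-1 site and a TATA box in the second, and CCAAT boxes of either strand in the third. Every motif was searched on both strands.
PLAUR, minus strand, chr19:43670120-43670419: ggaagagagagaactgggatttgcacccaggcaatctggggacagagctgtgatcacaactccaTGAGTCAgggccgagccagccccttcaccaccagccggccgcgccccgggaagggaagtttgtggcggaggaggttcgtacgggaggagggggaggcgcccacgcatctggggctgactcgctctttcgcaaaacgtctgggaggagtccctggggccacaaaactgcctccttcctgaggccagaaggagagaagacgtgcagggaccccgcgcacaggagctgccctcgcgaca
SERPINB2, plus strand, chr18:63887455-63887754: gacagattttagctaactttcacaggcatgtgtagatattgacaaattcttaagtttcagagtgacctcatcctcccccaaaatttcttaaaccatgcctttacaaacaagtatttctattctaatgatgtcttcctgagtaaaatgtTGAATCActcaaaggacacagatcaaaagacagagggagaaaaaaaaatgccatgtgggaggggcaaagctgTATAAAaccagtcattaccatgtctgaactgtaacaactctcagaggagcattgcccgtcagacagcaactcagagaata
SERPINE2, minus strand, chr2:224031429-224031728: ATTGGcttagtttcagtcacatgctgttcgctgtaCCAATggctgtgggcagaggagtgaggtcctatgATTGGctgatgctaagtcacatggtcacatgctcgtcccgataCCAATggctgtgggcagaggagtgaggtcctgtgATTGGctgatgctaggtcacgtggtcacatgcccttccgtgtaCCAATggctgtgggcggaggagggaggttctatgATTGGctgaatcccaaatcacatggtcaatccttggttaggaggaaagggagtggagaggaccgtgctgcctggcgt

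The PLAUR window held 1 AP-1 site, TGAGTCA at -186, and the SERPINB2 window held TGAATCA at -102 with a TATA box at -30. Of 35116 RefSeq windows of the same length, 7.71% held TGANTCA and 11.5% held TATAAA. In the first of 2 SERPINE2 windows there were 7 CCAAT boxes, at -250, -215, -181, -138, -104, -61 and -27, in alternating orientation. The windows are numbered by coordinate, so on the minus strand the first lies downstream of the second. Most of these boxes lie in near copies of a stretch repeated along the window, so they are not separate occurrences. A CCAAT box was in 34.6% of the windows, but only 8 windows (0.0228%) held at least 7, a cutoff taken from this SERPINE2 window. Both PLAU windows (chr10:73910360-73910659 and chr10:73910882-73911181) lacked the AP-1 letters. The first held 1 CCAAT box and the second 3 GC boxes (GGGCGG, in 44.95% of windows). GC boxes were also in both SERPINE2 windows, at -50 in the first and at -230 and -183 in the second (chr2:224038591-224038890). None of the 6 windows held a CRE (TGACGTCA, 1.85% of windows), an interferon-response element (3.57%) or the ETS letters CCGGAA (17.2%). PLAT was not among the genes searched. A match describes these letters only, and binding was not measured.

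Of the 5 genes, 4 had enough reads to be tested, and all 4 were higher with each siRNA than with scrambled siRNA. PLAT changed most, at 3.89-fold of the scrambled level with siRNA-2 and 2.27-fold with siRNA-1, followed by SERPINE2 at 2.54-fold and 2.17-fold. The receptor gene PLAUR and the urokinase gene PLAU were 1.41- to 1.58-fold higher. SERPINB2 was at the floor of detection in every library. These counts stand against a broad background: 29.9% of the 24910 genes tested were called higher with siRNA-2 and 28.6% with siRNA-1, and in 27.8% and 25.2% of genes all treated libraries lay above all scrambled ones, as they did for all 4 tested members with each siRNA. PLAT and SERPINE2 were at least 2-fold higher with each siRNA, as were 6.34% of genes with siRNA-2 and 5.11% with siRNA-1. In either direction, 56.1% and 53.4% of genes were called. The median log2 fold change was 0.94 with siRNA-2 and 0.89 with siRNA-1 over the 4 members, against 0.01 and 0.01 over all genes tested. Because the members were chosen with earlier results of these data known, this contrast is a description only. Both comparisons use the same 4 scrambled libraries, so they are not independent of each other. In bulk RNA, a change in the share of cells that express a gene and a change in RNA per cell cannot be told apart.

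**Figure D1:**
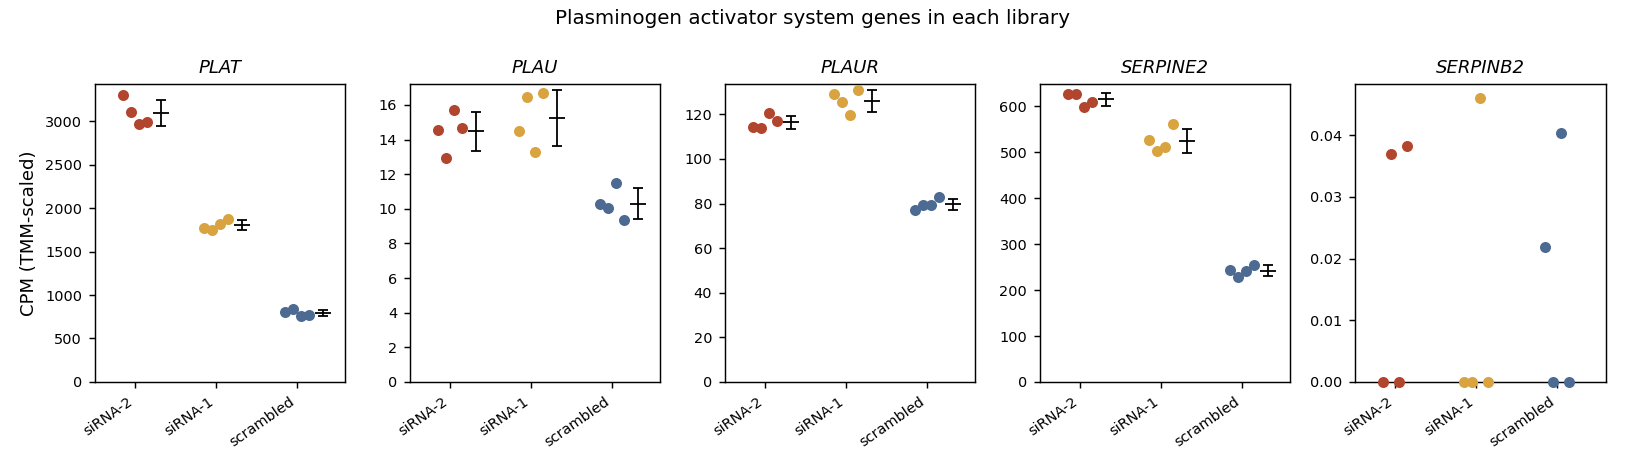
Level of each gene (y axis, TMM-scaled CPM, a separate scale for each panel) in each library (points) with siRNA-2, siRNA-1 and scrambled siRNA (x axis), with the mean and SD of the 4 libraries beside the points for all but SERPINB2. Every siRNA-2 and siRNA-1 library lies above every scrambled library for PLAT, PLAU, PLAUR and SERPINE2, while SERPINB2 has at most 2 reads in a library.

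PLAT, which encodes tPA, lies on the minus strand at chr8:42174397-42208118 (hg38, as all intervals here). Its level was 3305, 3102, 2972 and 2996 CPM in the siRNA-2 libraries. With siRNA-1 it was 1766, 1750, 1813 and 1876 CPM, and with scrambled siRNA 805, 835, 764 and 775 CPM. The 3 groups did not overlap, and their order was siRNA-2, siRNA-1, scrambled. The means were 3094 ± 151, 1801 ± 56.7 and 795 ± 31.7 CPM in that order (SD, n = 4 each). The log2 fold change was 1.96 with siRNA-2 (SE 0.04, adjusted p = 8.3e-21, edgeR quasi-likelihood test with Benjamini-Hochberg adjustment over all genes) and 1.18 with siRNA-1 (SE 0.04, adjusted p = 2.54e-17). By p-value PLAT was first of the 24910 genes with siRNA-2 and number 37 with siRNA-1. By log2 fold change it was number 379 with siRNA-2 and number 978 with siRNA-1. The gene alone took 0.296 to 0.333% of gene counts with siRNA-2, 0.173 to 0.184% with siRNA-1 and 0.0768 to 0.0837% with scrambled siRNA.

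PLAU, the urokinase gene, lies at chr10:73909182-73917539 on the plus strand of chromosome 10. Its siRNA-2 libraries had 14.6, 12.9, 15.7 and 14.7 CPM and its siRNA-1 libraries 14.5, 16.5, 13.3 and 16.7 CPM, against 10.3, 10.02, 11.5 and 9.36 CPM in the scrambled libraries. The siRNA-2 and siRNA-1 libraries were mixed among each other, and all 8 lay above the scrambled ones. The means were 14.5 ± 1.14, 15.2 ± 1.62 and 10.3 ± 0.896 CPM with siRNA-2, siRNA-1 and scrambled siRNA (SD, n = 4 each). PLAU rose by 0.49 on the log2 scale with siRNA-2 (SE 0.08, adjusted p = 9.08e-06) and by 0.57 with siRNA-1 (SE 0.08, adjusted p = 1.38e-06). C10orf55, on the opposite strand, covers 90.6% of the PLAU interval, and both had 7724 reads in sum over the 12 libraries, with at most 1 read between them in any library. Reads of the 2 genes therefore cannot be told apart, and the values belong to the shared interval.

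PLAUR encodes uPAR, which holds urokinase at the cell surface, and lies on the minus strand at chr19:43646095-43670346. It had 114, 114, 120 and 117 CPM with siRNA-2. With siRNA-1 it had 129, 125, 120 and 131 CPM, and with scrambled siRNA 77.3, 79.3, 79.2 and 83.1 CPM. All siRNA-2 and siRNA-1 libraries stood above the scrambled ones, and the siRNA-2 and siRNA-1 ranges met at their edge. PLAUR averaged 116 ± 3.02 CPM with siRNA-2, 126 ± 4.92 CPM with siRNA-1 and 79.7 ± 2.47 CPM with scrambled siRNA (SD, n = 4 each). The log2 fold changes were 0.55 with siRNA-2 (SE 0.04, adjusted p = 3.54e-12) and 0.66 with siRNA-1 (SE 0.04, adjusted p = 1.16e-13).

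SERPINE2 encodes protease nexin-1, a serpin that inhibits thrombin, urokinase and tPA, and lies on the minus strand at chr2:223975045-224039319. Its level was 626, 628, 599 and 609 CPM in the siRNA-2 libraries. The siRNA-1 libraries had 526, 502, 512 and 561 CPM, against 244, 229, 242 and 256 CPM in the scrambled libraries. The 3 groups did not overlap, in the same order as for PLAT but with less distance between siRNA-2 and siRNA-1. Means were 615 ± 13.8 CPM with siRNA-2, 525 ± 25.9 CPM with siRNA-1 and 243 ± 10.9 CPM with scrambled siRNA (SD, n = 4 each). SERPINE2 rose by 1.34 on the log2 scale with siRNA-2 (SE 0.04, adjusted p = 1.63e-18) and by 1.11 with siRNA-1 (SE 0.04, adjusted p = 3.96e-17).

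SERPINB2 encodes PAI-2, an activator inhibitor that stays mostly inside the cell, and lies on the plus strand at chr18:63887705-63905040. It had 0, 2, 0 and 2 reads with siRNA-2 and 0, 0, 2 and 0 reads with siRNA-1, against 1, 0, 2 and 0 reads with scrambled siRNA. It did not pass the filter on low counts and was not tested. A count of 0 allows a level of up to 0.055 to 0.0691 CPM in these libraries (3 counts per library; counting error only), so a difference was not detectable at this depth.

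The siRNAs differed from each other in 3 of the 4 tested genes, on a background of 15.8% of genes called higher and 16.8% called lower with siRNA-2 than with siRNA-1 (32.6% in either direction, and 1.47% at least 2-fold higher). PLAT was 1.72-fold higher with siRNA-2 (log2 fold change 0.78, SE 0.04, adjusted p = 2.98e-13) and SERPINE2 1.17-fold higher (0.23, SE 0.04, adjusted p = 7.1e-05), with every siRNA-2 library above every siRNA-1 library for both, as in 15.7% of all genes. For PLAUR the sign was the other way, at -0.12 on the log2 scale (SE 0.04, adjusted p = 0.0163); 3 of 4 siRNA-2 libraries lay below all siRNA-1 libraries. That call was lost when siRNA-1 replicate 1 (adjusted p = 0.073) or 4 (0.0807), or siRNA-2 replicate 1 (0.0583) or 2 (0.0555), was left out. PLAU did not pass the test (-0.08, SE 0.08, adjusted p = 0.497), which does not show that the siRNAs act alike on it. The interferon-stimulated list also stood higher with siRNA-2, at the summed levels given above; 4 of its 10 genes were called higher and none lower than with siRNA-1. Within the scrambled group, the library with the most interferon-gene RNA ranked second of 4 for PLAT, PLAU and SERPINE2 and lowest for PLAUR. The part of the interferon-stimulated genes in the members' changes was not tested.

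Levels of different genes can be set side by side only per length. Per kilobase of merged exons (GENCODE 29), PLAT stood at 467 ± 22.9 CPM per kb with siRNA-2, 272 ± 8.57 with siRNA-1 and 120 ± 4.79 with scrambled siRNA. By this measure it was number 19, 49 and 192 of 17862 protein-coding genes in those groups. SERPINE2 followed at 69.2, 59.1 and 27.3 CPM per kb with siRNA-2, siRNA-1 and scrambled siRNA, then PLAUR at 26.1, 28.3 and 17.9 and PLAU at 4.90, 5.16 and 3.49. The order PLAT, SERPINE2, PLAUR, PLAU, SERPINB2 was the same in all 3 groups, and no neighbours among the first 4 overlapped in any group. Among the transcripts of these genes, that of the tPA activator was thus the most abundant per length, with or without uc.110 siRNA, and that of urokinase the least abundant of the 4 detected ones.

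**Figure D2:**
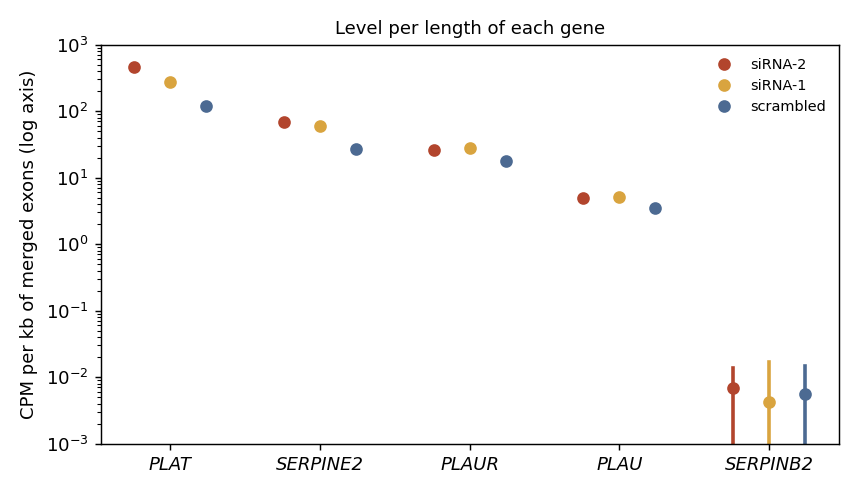
Level per kilobase of merged exons (CPM per kb, log axis) of each gene with siRNA-2, siRNA-1 and scrambled siRNA. Points are means of 4 libraries and lines run from the lowest to the highest library. For SERPINB2 the lower end of the line is cut at the bottom of the axis. PLAT is highest in each group, at 467, 272 and 120 CPM per kb, and PLAU is lowest of the 4 detected genes, at 4.90, 5.16 and 3.49.

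Ratios within a library do not depend on scaling between libraries. The log2 count ratio of PLAT to SERPINE2, the activator over an inhibitor of it, was 2.33 ± 0.05 with siRNA-2, 1.78 ± 0.04 with siRNA-1 and 1.71 ± 0.12 with scrambled siRNA (SD, n = 4 each). All siRNA-2 libraries (2.30 to 2.40) lay above the rest, while siRNA-1 (1.74 to 1.82) fell inside the scrambled range (1.60 to 1.87). These ratios were described and not tested. For PLAU over SERPINE2 the ratio was -5.41 ± 0.14 with siRNA-2 and -5.11 ± 0.15 with siRNA-1 against -4.56 ± 0.16 with scrambled siRNA, and neither siRNA group overlapped the scrambled one. Urokinase over its receptor, PLAU over PLAUR, overlapped between all groups (-3.01 ± 0.09, -3.06 ± 0.12 and -2.96 ± 0.15 with siRNA-2, siRNA-1 and scrambled siRNA). The ratio of the 2 activators, PLAT over PLAU, was chosen after the values were seen: PLAT had on average 215 times the reads of PLAU with siRNA-2, 119 times with siRNA-1 and 77.8 times with scrambled siRNA. These ratios are of reads, with no correction for gene length.

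**Figure D3:**
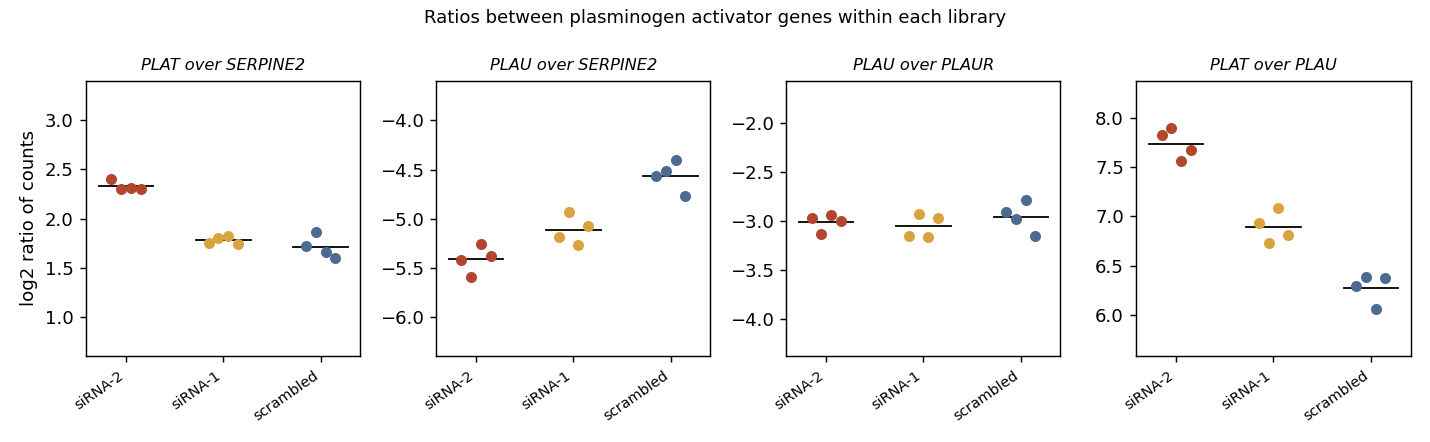
Log2 ratio of read counts between pairs of the genes (y axis) in each library (points), with the mean of 4 libraries (line), for siRNA-2, siRNA-1 and scrambled siRNA. PLAT over SERPINE2 averages 2.33, 1.78 and 1.71, PLAU over SERPINE2 lies lower with both siRNAs than with scrambled siRNA in every library, and PLAU over PLAUR overlaps between groups.

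Across the 12 libraries the genes most like each member in log2 CPM were picked by Pearson's r among 12380 genes. For PLAT these were PKP3 (r = 0.995), MADD (0.995) and MCAM (0.994), for PLAUR CCDC80, P3H4 and SEMA4F (0.994 to 0.993), and for SERPINE2 YWHAH, CBS and NGFR (0.997 to 0.996). PLAU was most like OLFM2 (0.955), ZNF816 (0.949) and TTYH2 (0.948). Among the members themselves r was 0.965 for PLAT with SERPINE2, 0.94 for PLAUR with SERPINE2 and 0.782 for PLAT with PLAU. The libraries share 3 groups of 4, so these r describe the step between groups; 1460 genes exceeded 0.9 with PLAT, 1862 with SERPINE2, 1488 with PLAUR and 292 with PLAU.

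The genes that surround the activators moved in both directions. Of 2 further activator inhibitors, both were lower with siRNA-2, and 1 was higher and 1 lower with siRNA-1. Lower calls made up 26.2% of all genes tested with siRNA-2 and 24.9% with siRNA-1, and higher calls 28.6% with siRNA-1. SERPINI1, which encodes the tPA inhibitor neuroserpin, fell by 0.52 with siRNA-2 and by 0.95 with siRNA-1 on the log2 scale. SERPINA5, the protein C inhibitor gene, was 2.23, 6.72 and 4.44 CPM with siRNA-2, siRNA-1 and scrambled siRNA; it fell by 0.99 with siRNA-2 and rose by 0.60 with siRNA-1, and the difference between the siRNAs passed the test (-1.59, SE 0.12, adjusted p = 3.05e-10).

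Plasminogen itself, PLG, had at most 3 reads in a library and was not tested. Of 6 listed genes, PLG and plasmin inhibitors, 5 had an interval that was used (SERPINF2 was not analysed here), and 2 of these had enough reads to be tested: SERPING1 (C1 inhibitor) averaged 13.9, 11.6 and 2.86 CPM with siRNA-2, siRNA-1 and scrambled siRNA and rose by 2.28 and 2.02 on the log2 scale with siRNA-2 and siRNA-1. TFPI2, a Kunitz inhibitor of plasmin, rose with siRNA-2 (0.94, SE 0.12, adjusted p = 4.91e-07), while its siRNA-1 value was 0.15 (SE 0.13, adjusted p = 0.333). Of 5 surface proteins that bind plasminogen, 1 was higher and 4 lower with each siRNA, on a background of 26.2% of genes called lower with siRNA-2 and 24.9% with siRNA-1 (medians -0.44 and -0.45). S100A10 and ANXA2, partners in a membrane complex that binds plasminogen, fell by 0.71 and 0.52 with siRNA-2 and by 0.45 and 0.84 with siRNA-1. S100A10 overlaps LOC105371441 on the other strand over 61.9% of its interval. KRT8, a keratin described as a plasminogen receptor on tumour cells, was the 1 higher gene, at 0.48 with siRNA-2 and 1.07 with siRNA-1.

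Some clearance receptors take up activators bound to inhibitors. Over all genes tested, 29.9% were called higher and 26.2% lower with siRNA-2, and 28.6% and 24.9% with siRNA-1. Among 7 genes, clearance receptors and their chaperone, 4 were higher and 1 lower with siRNA-2, and 4 higher and 2 lower with siRNA-1. These counts moved with the processing: in 21 other settings, 3 were higher with siRNA-2 in 4 and 2 lower in 9, and 3 were higher with siRNA-1 in 17. VLDLR averaged 18.0, 20.0 and 8.70 CPM with siRNA-2, siRNA-1 and scrambled siRNA and rose by 1.05 and 1.20 on the log2 scale; LOC105375957, on the other strand, covers 19.9% of it. SORL1 fell by 2.39 with siRNA-2 and by 1.45 with siRNA-1. LRPAP1, the chaperone of this receptor family, rose by 0.65 and 0.45 in the same order. LRP1, which takes up tPA and inhibitor-bound urokinase, was at 549, 528 and 441 CPM, with log2 fold changes of 0.31 (adjusted p = 0.0175) and 0.26 (adjusted p = 0.0444), close to the threshold. LRP2 did not pass the test with either siRNA.

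Of the 8 tested partners of uPAR at the surface or in the matrix, 3 were higher and 3 lower with siRNA-2, and 2 higher and 3 lower with siRNA-1. Shares over all genes tested were 29.9% higher and 26.2% lower with siRNA-2, and 28.6% and 24.9% with siRNA-1. VTN, the gene of vitronectin, a matrix ligand of uPAR, had 2.47 CPM with siRNA-2 and 7.90 CPM with siRNA-1, against 1.15 CPM with scrambled siRNA, log2 fold changes of 1.09 and 2.77 that differed by -1.68 (siRNA-2 against siRNA-1, SE 0.12, adjusted p = 6.55e-11). The integrin genes ITGAV and ITGB1 fell with both siRNAs, ITGAV by 0.97 with siRNA-2 and 0.45 with siRNA-1 and ITGB1 by 0.62 and 0.52. ITGB3 was under 1 CPM on average in each group; it fell by 1.21 with siRNA-1, and its siRNA-2 value was -0.51 (adjusted p = 0.113). EFCAB13-DT, on the other strand, overlaps 24.8% of its interval.

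Substrates of plasmin or of the activators gave 5 higher and 2 lower of 9 tested genes with siRNA-2, and 4 higher and 1 lower with siRNA-1 (medians 0.60 and 0.11). Among all genes tested, 29.9% were called higher and 26.2% lower with siRNA-2, and 28.6% and 24.9% with siRNA-1. FN1, fibronectin, averaged 196, 111 and 96.1 CPM with siRNA-2, siRNA-1 and scrambled siRNA and rose by 1.02 and 0.20 on the log2 scale. IGFBP5, a carrier of insulin-like growth factors, rose by 1.77 and 2.00. PDGFC, a growth factor that tPA cuts into its active form, rose by 0.60 with siRNA-2 and was at 0.11 with siRNA-1 (adjusted p = 0.0738). MMP13, a collagenase, rose by 3.28 with siRNA-2 and 2.64 with siRNA-1, at 6.40 and 4.11 CPM against 0.656 CPM with scrambled siRNA. MMP1 rose by 1.55 and 0.57 and MMP3 fell by 1.13 and 1.24, but MMP1 lies wholly inside WTAPP1, on the other strand, so their reads cannot be told apart. WTAPP1 also overlaps 12.3% of the MMP3 interval.

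AP-1 and ETS factors, which are known to act on PLAU and PLAUR regulatory sequence, gave 6 higher and 3 lower of 11 genes with siRNA-2, and 5 higher and 2 lower with siRNA-1 (medians 0.46 and 0.21). The background over all genes tested was 29.9% higher and 26.2% lower with siRNA-2, and 28.6% and 24.9% with siRNA-1. JUN averaged 138, 133 and 77.8 CPM with siRNA-2, siRNA-1 and scrambled siRNA, and rose by 0.83 and 0.77. JUND rose by 1.27 and 0.86, and FOSL2 by 0.57 and 0.31. FOSL1 rose with siRNA-2 (0.63, SE 0.04, adjusted p = 7.7e-12) but was at -0.07 with siRNA-1 (adjusted p = 0.212), and the siRNAs differed by 0.70 (SE 0.05, adjusted p = 9.92e-12). ETS1 went the other way, with 70.6, 90.1 and 129 CPM and falls of 0.87 with siRNA-2 and 0.52 with siRNA-1. FOSL1, FOSL2 and ETS1 each overlap a gene on the opposite strand.

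**Figure D4:**
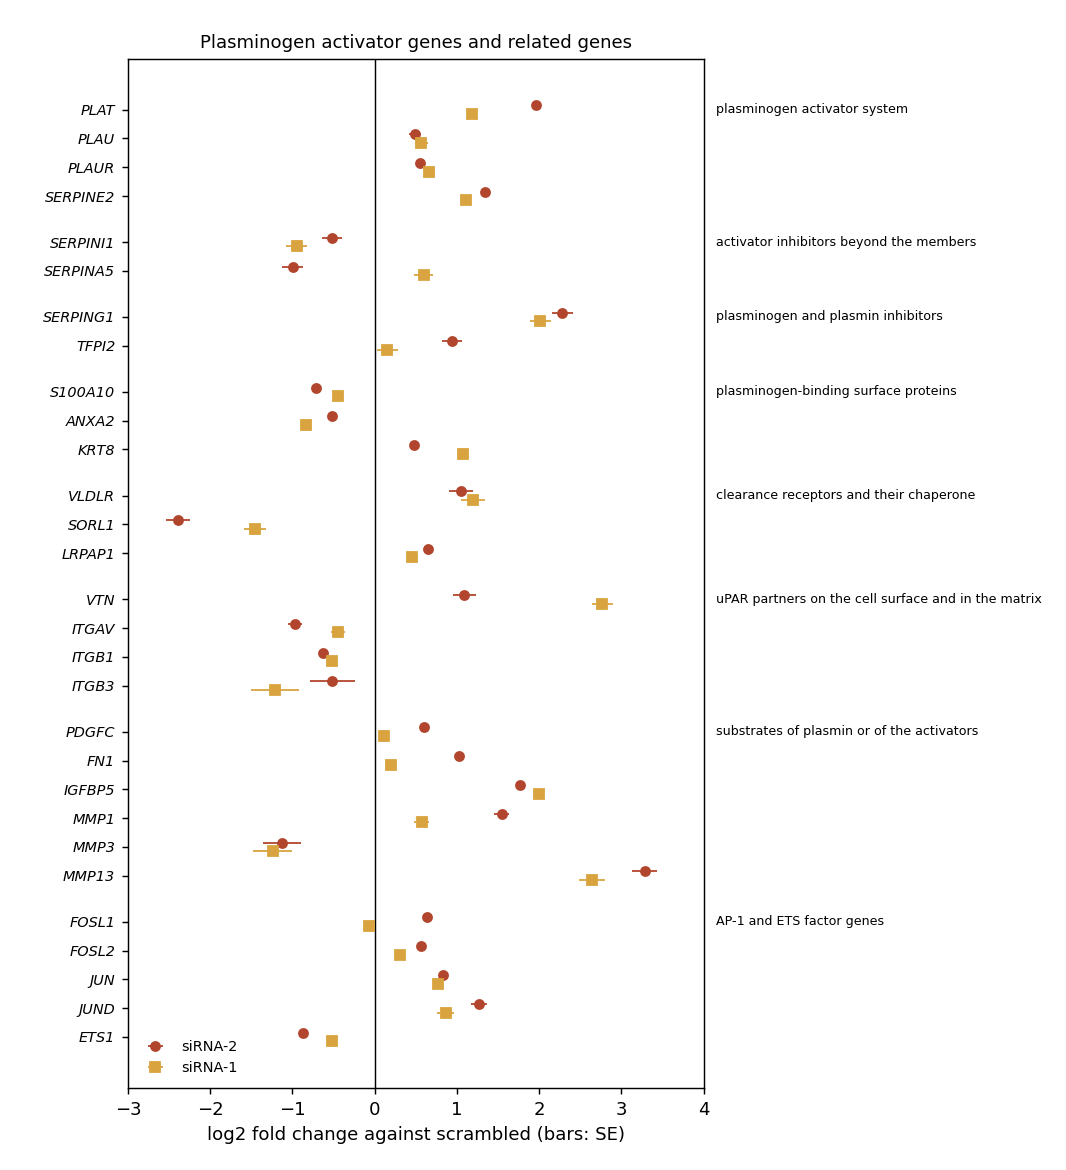
Log2 fold change against scrambled siRNA (x axis, bars: SE) with siRNA-2 (circles) and siRNA-1 (squares) for the 4 tested members and for genes of the related lists with a change of at least 0.5 with either siRNA. The members all lie right of 0, from 0.49 to 1.96, while each related list but the plasmin inhibitors holds genes on both sides.

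Of 7 listed hematopoietic and microglial markers, 5 had an interval that was used, as did 6 of 7 neuron and oligodendrocyte markers. PTPRC, AIF1 and MOG were not analysed here, so nothing is known of their level. The measured markers of other cell types were low, apart from CD68, CSF1R, TEK and SYT1. TEK and SYT1 averaged above the glioma marker SOX2 in each group. Endothelial markers summed to 27.1 to 32.6 CPM with siRNA-2, 33.2 to 38.2 CPM with siRNA-1 and 30.8 to 34.8 CPM with scrambled siRNA, most of it TEK, and CDH5, KDR and CLDN5 were under 1 CPM. PECAM1 averaged 3.33, 4.17 and 3.32 CPM with siRNA-2, siRNA-1 and scrambled siRNA, and VWF, at 0.605, 1.43 and 1.02 CPM, fell by 0.74 on the log2 scale with siRNA-2 (adjusted p = 0.00174) and rose by 0.49 with siRNA-1 (adjusted p = 0.0224). Hematopoietic and microglial markers summed to 307 to 333 CPM with siRNA-2, 247 to 257 CPM with siRNA-1 and 272 to 302 CPM with scrambled siRNA; CD68 and CSF1R made up nearly all of this sum, and CD3E was near 0. CD68, a lysosomal protein gene not limited to macrophages, had 156, 72.6 and 37.9 CPM with siRNA-2, siRNA-1 and scrambled siRNA, while CSF1R fell with both siRNAs. The part of these markers in the members' changes was not tested. Neuron and oligodendrocyte markers summed to 26.8 to 29.1 CPM with siRNA-2, 25.1 to 28.5 CPM with siRNA-1 and 31.1 to 34.1 CPM with scrambled siRNA, mostly SYT1.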

How the data were processed

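RNA-seq counts were analysed for 12 libraries, 4 per siRNA group. The deposited table holds whole-number counts per interval for the 12 libraries on hg38; Salmon is named in the submitters' processing notes, while the version, the counting step and its use of strand were not given in the sources used here. From 49731 intervals, 962 ultraconserved or control regions were set aside, and rows with number names, older names, copies, intervals that reached over 100 kb beyond their gene, and 45S rRNA repeats were left out, leaving 44398. Genes passing filterByExpr (24910) were scaled by TMM and fitted over all 3 groups with edgeR 4.0.16 (glmQLFit, glmQLFTest; R 4.3.3, limma 3.58.1), with Benjamini-Hochberg adjustment over all tested genes and a threshold of 0.05. SE is the log2 fold change over the square root of F. CPM uses TMM-scaled totals, and exon lengths come from GENCODE 29. Related genes were named when a list member changed by at least 0.5 on the log2 scale, and was called, against scrambled siRNA; LRP1, LRP2 and the marker genes given with values were chosen after their values were seen. The members and lists were chosen with earlier results of these data known, and 1 related gene is not reported here. The fit was tested on simulated counts with 50 genes planted at each of 4 fold changes, for siRNA-1 against scrambled siRNA. It recovered 41 to 49 of each 50 and called 15 of 24016 unchanged genes. Far fewer genes changed there than were called in these data, so the fit was not tested under so broad a change. No column of per-sample values was left unmapped. Alternatives were DESeq2 1.42.0 and its size factors, library totals, filters, a fit on 2 groups, a replicate block and leaving out each library. Replicate numbers did not pair the libraries: residual correlations of same-numbered libraries were -0.05 to 0.04. Counting intervals and floors cover counting error only.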

Additional observations from a re-analysis of the deposited data

Results flagged for a closer look

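The effects of the siRNAs differed from each other in 3 genes, by a test of siRNA-2 against siRNA-1. PLAT was higher with siRNA-2, with a log2 difference of 0.78 (adjusted p = 2.98e-13, edgeR). SERPINE2 was higher with siRNA-2, by 0.23 (adjusted p = 7.1e-05). PLAUR was lower with siRNA-2, at -0.12 (adjusted p = 0.0163), and that call was lost without any 1 of 4 of the libraries, as given above. By Dixon's test, no library stood apart from the other 3 of its group in the 4 tested members. For SERPINB2, siRNA-1 replicate 3 did, at 0.046 CPM against 0 in the other 3 libraries of that group, but this is 2 reads, under the limit of 3 counts.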

How the results depend on the processing

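Against scrambled siRNA, the 4 tested members kept their direction and their call in all 168 of 168 values over 21 settings. Log2 fold changes ran from 1.92 to 1.98 for PLAT, 0.43 to 0.54 for PLAU, 0.51 to 0.56 for PLAUR and 1.30 to 1.35 for SERPINE2 with siRNA-2, and from 1.14 to 1.18, 0.50 to 0.61, 0.62 to 0.67 and 1.06 to 1.12 with siRNA-1. For siRNA-2 against siRNA-1, PLAUR was no longer called with library totals (-0.10, adjusted p = 0.0572) or with no filter (-0.11, adjusted p = 0.0689), and leaving out each library in turn gave -0.14 to -0.10; adjusted p over all its settings was 0.0107 to 0.0807, and the cause was not tested. With protein-coding intervals only, 4965 of 15026 genes tested were called higher with siRNA-2 and 4709 with siRNA-1. These are larger shares than the 7459 and 7120 of 24910 genes in the main fit. Per kilobase of interval in place of exons, the scrambled levels were 23.6 for PLAT, 1.23 for PLAU, 3.29 for PLAUR and 3.77 for SERPINE2 in CPM per kb, with the same order. The replicate block kept every member's call (PLAUR in siRNA-2 against siRNA-1: -0.12, adjusted p = 0.0203). Of 1847 values for related genes and lists, 16 list counts moved far enough to be flagged. Smaller changes were not flagged, such as 3 in place of 4 clearance genes higher with siRNA-1 in 17 of 21 settings. SERPINB2 and PLG could not be compared at this depth.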
